A study of Mus musculus with 8 samples.

Results

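The nuclear genes of the mitochondrial respiratory chain were followed in spleen neutrophils of WT and *Cxcr2-/-* mice. They were chosen by name, as every protein-coding gene of GENCODE M21 whose symbol begins with Nduf, Sdh, Uqcr, Atp5, Cox4, Cox5, Cox6, Cox7 or Cox8. Of 98 such genes listed in the count files, 90 had at least 10 counts in 4 or more of the 8 libraries and are the genes described here, of 55414 genes listed in all. They were sorted by complex into 36 genes of complex I, 4 of complex II, 8 of complex III, 15 of complex IV, 16 of ATP synthase and 11 assembly factors or associated genes. *Ndufa4*, whose product is a subunit of complex IV despite its name, was placed there. The 8 genes below the minimum were *Ndufaf2*, *Sdhaf3*, *Cox4i2*, *Cox6a2*, *Cox7b2*, *Cox8c*, *Ndufa4l2* and a second entry of *Atp5o*. They held at most 24 counts in any library, and 4 of them had none. The name rule leaves out *Cyc1*, the cytochrome of complex III, and the subunits encoded by mitochondrial DNA, which are given separately.

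The respiratory chain passes electrons from NADH through complex I, or from succinate through complex II, to complex III, to cytochrome c and to complex IV, where oxygen is reduced. Complexes I, III and IV pump protons across the inner mitochondrial membrane, and ATP synthase uses the return of these protons to make ATP. Complex II is built from nuclear genes only, whereas the other complexes also hold subunits encoded by mitochondrial DNA. Mature neutrophils are known for few mitochondria and for drawing most of their ATP from glycolysis, while their precursors in the bone marrow hold more mitochondria.

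Both groups were FVB mice aged 10 weeks under SOPF housing, with 4 WT and 4 *Cxcr2-/-* samples and 1 RNAseq library each. The *Cxcr2-/-* mice carried a constitutive knockout of *Cxcr2*, the receptor for the chemokines that draw neutrophils into blood and tissue, so all cells of the animal lacked it. Neutrophils were enriched by CD11b selection and sorted as CD45+ CD11b+ Ly6G+ F4/80- cells, and ribosomal RNA was depleted before directional libraries were made. Expression is given as CPM, the share of a gene in all counts of its library after TMM scaling, as mean ± SD over the 4 libraries of a group. Log2 fold changes are *Cxcr2-/-* over WT. Their SE was derived as the absolute log2 fold change divided by the square root of the F value of edgeR's quasi-likelihood test. A gene passed the test when its p from edgeR's quasi-likelihood test, adjusted by the Benjamini-Hochberg method over the 16778 genes tested, was under 0.05. The study describes the groups as 4 animals each, while the sample labels give only replicate numbers.

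Counts on genes came to 34220182 to 46233555 per WT and 37549648 to 43789253 per *Cxcr2-/-* library. The level of *Cxcr2* itself ranged from 1719 to 2252 CPM over the WT and from 12.9 to 20.7 CPM over the *Cxcr2-/-* libraries, and every library matched its label. The neutrophil markers *Ly6g* (166 to 263 CPM in WT, 488 to 597 CPM in *Cxcr2-/-*) and *S100a8* (8956 to 30150 CPM) were present in all libraries, and of 10 neutrophil markers 7 rose and 2 fell, *Cxcr2* and *Csf3r*. Read pairs that met no annotated gene made up 31.4% to 41.5% of the pairs in WT and 26.7% to 31.9% in *Cxcr2-/-* libraries. The 6 markers of neutrophil precursors, among them *Mpo* and *Elane*, summed to 85.9 to 97.4 CPM over the WT and to 259 to 525 CPM over the *Cxcr2-/-* libraries, and all 6 rose. The 6 proliferation markers summed to 266 to 316 CPM in WT and 836 to 936 CPM in *Cxcr2-/-*, and all 6 rose. Of the 8 B cell markers, 6 fell, and their sum went from 74.8 to 166 CPM in WT to 31.8 to 74.5 CPM in *Cxcr2-/-*. The 10 monocyte and macrophage markers summed to 519 to 620 CPM in WT and 262 to 416 CPM in *Cxcr2-/-*, with 2 that fell and 1 that rose. The 9 T and NK cell markers summed to 99.5 to 119 and 98.1 to 142 CPM, nearly all of it *Cd3d*, and 6 of them averaged under 1 CPM. The 10 erythroid markers stayed at 1.83 to 12.9 CPM in all libraries and 8 averaged under 1 CPM, and none of the 5 tested passed. The 6 platelet markers summed to 15.4 to 20.9 CPM in WT and 10.3 to 15.1 CPM in *Cxcr2-/-*, with 2 of 3 tested that fell and *Pf4* and *Ppbp* under 1 CPM. The 6 dendritic cell markers summed to 11.2 to 35.5 and 6.61 to 11.2 CPM, with 2 of 5 tested that fell. The 6 eosinophil and basophil markers summed to 48.8 to 68.9 and 37.6 to 64.4 CPM, with 2 that rose (*Prg2* and *Epx*) and 2 that fell (*Siglecf* and *Ccr3*). Of the marker shifts, only those of B cell, T and NK cell, monocyte and macrophage, erythroid and platelet markers enter a covariate given below. That covariate, for RNA of other cell types, is the mean log2 level of these markers in each library. The other covariate given below is the share of pairs that met no gene. Only WT replicate 1, at 31.4%, lay below any *Cxcr2-/-* library, so this covariate and genotype can hardly be told apart. The part of the remaining shifts in the results, among them those of precursor and proliferation markers, was not tested. In sorted bulk samples a change in the share of a cell type and a change in RNA per cell cannot be told apart.

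Of the 90 genes, 69 rose in *Cxcr2-/-* neutrophils and 1 fell, and the other 20 did not pass the test. The 69 include *Ndufaf6*, which met the count minimum only through the *Cxcr2-/-* libraries. Over all 16778 genes tested, 23.7% rose and 21.0% fell. The 90 genes are all protein-coding. Of the other protein-coding genes tested, 29.5% rose and 20.3% fell, with a median log2 fold change of 0.09. Among the 90 genes, 55 rose by at least 1.5-fold, against 15.7% of all genes tested. In 68 of the 90, every *Cxcr2-/-* library lay above every WT library, which held for 22.5% of all genes tested. In 1 of the 90, every *Cxcr2-/-* library lay below every WT library, against 19.1% of all genes tested. The median log2 fold change was 0.66 over the 90 genes and 0.01 over all genes tested. With a covariate for the share of pairs that met no gene, 28 of the 90 rose and none fell in edgeR's test (9.52% of all genes rose), and the median log2 fold change of the 90 genes was 0.55. With the covariate for RNA of other cell types, which holds no precursor or proliferation markers, 68 rose, against 23.4% of all genes.

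The counts and medians are given by complex. ATP synthase had the highest median log2 fold change, 0.78, and 15 of its 16 genes rose. Complex IV followed with 0.70 and 12 of 15 genes, complex I with 0.69 and 30 of 36, and complex III with 0.65 and 7 of 8. Complex II had a median of 0.18, with 2 genes that rose, 1 that fell and 1 that did not pass. The assembly and associated genes had a median of 0.30, and 3 of 11 rose. With the covariate for pairs that met no gene, which goes with genotype, the order changed. The median was then 0.65 for ATP synthase (9 of 16 rose), 0.55 for complex IV (4 of 15), 0.52 for complex I (12 of 36), 0.40 for complex III (2 of 8), 0.038 for complex II (1 of 4) and 0.66 for the assembly and associated genes (0 of 11). No difference between complexes was tested. The plot of every fold change by complex shows that most complexes held a few genes near or below 0.

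**Figure D1:**
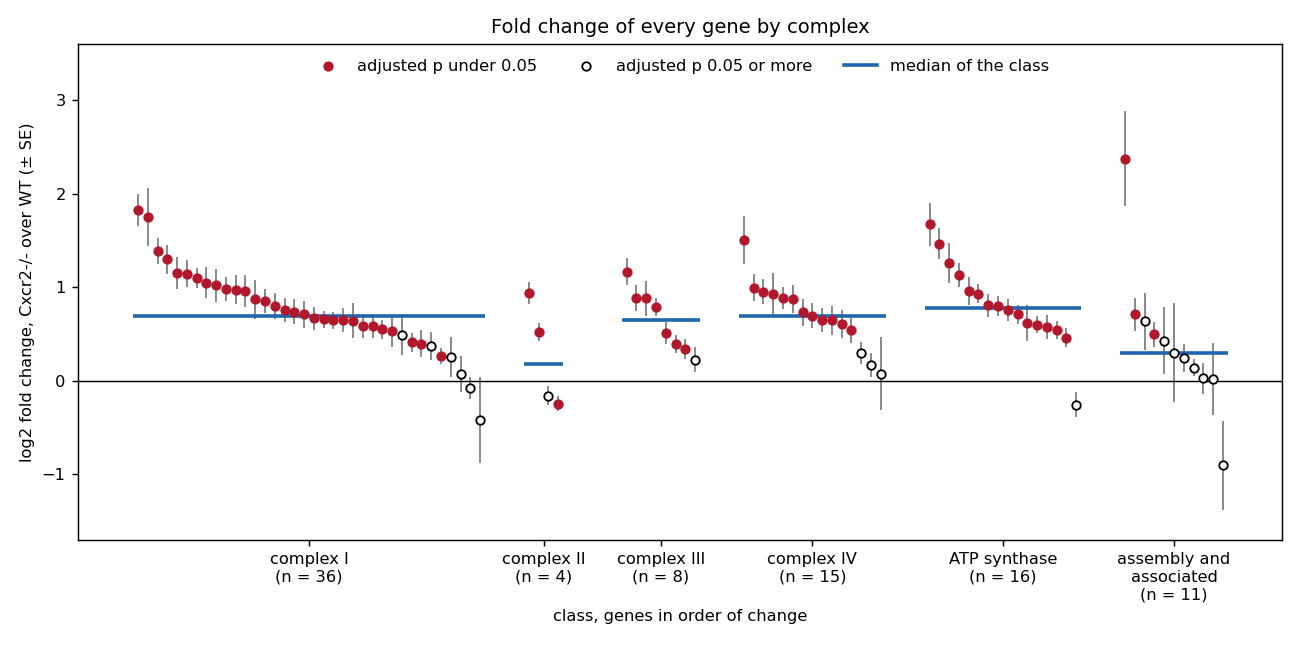
Log2 fold change (*Cxcr2-/-* over WT, ± SE derived from the F value) of each of the 90 genes, in order of change within its class, with the class median as a blue line. Filled points passed an adjusted p of 0.05, and 69 of the 70 filled points lie above 0.

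Summed over all 90 genes, the RNA came to 1883, 1502, 1787 and 1634 CPM in WT replicates 1 to 4 and to 2552, 2376, 2781 and 2448 CPM in *Cxcr2-/-* replicates 1 to 4, or 1701 ± 168 against 2539 ± 177 CPM. The groups did not overlap. WT replicate 2 had the lowest and *Cxcr2-/-* replicate 3 the highest sum of its group. The ratio of the group means was 1.64 for complex I (417 ± 41.0 against 682 ± 57.2 CPM), 1.56 for ATP synthase (531 ± 44.9 against 826 ± 49.7 CPM), 1.53 for complex IV (349 ± 50.5 against 533 ± 58.1 CPM) and 1.47 for complex III (168 ± 19.8 against 248 ± 13.7 CPM). For complex II it was 1.02, with 178 ± 12.3 CPM in WT and 182 ± 7.47 CPM in *Cxcr2-/-*, and the groups overlapped. The assembly and associated genes went from 58.1 ± 3.77 to 67.9 ± 2.95 CPM without overlap.

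**Figure D2:**
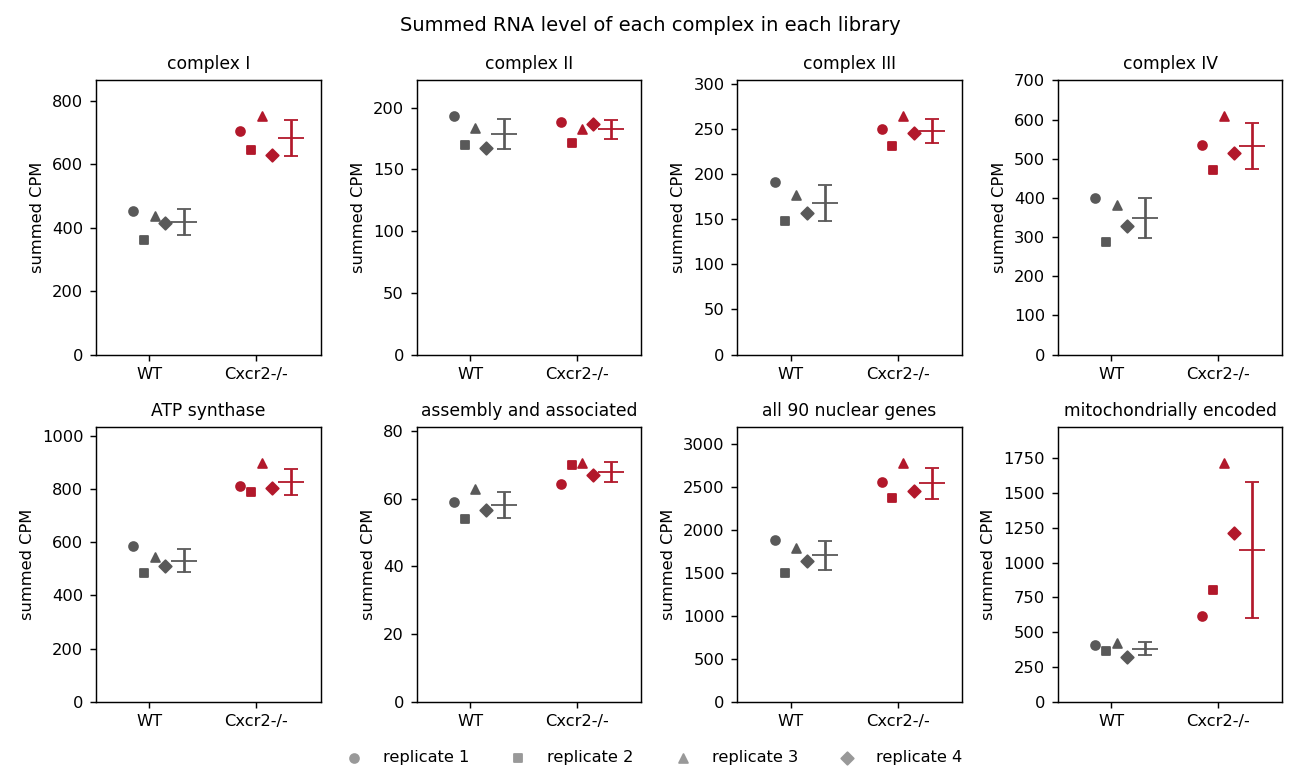
Summed CPM of each class in each library (n = 4 per group, replicates by marker shape), with mean ± SD beside the points. All sums but that of complex II separate the groups, and the mitochondrially encoded subunits spread most among the *Cxcr2-/-* libraries, from 614 to 1717 CPM. That sum is mostly *mt-Co1*, and 6 of its 13 genes were hardly counted.

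**Figure D3:**
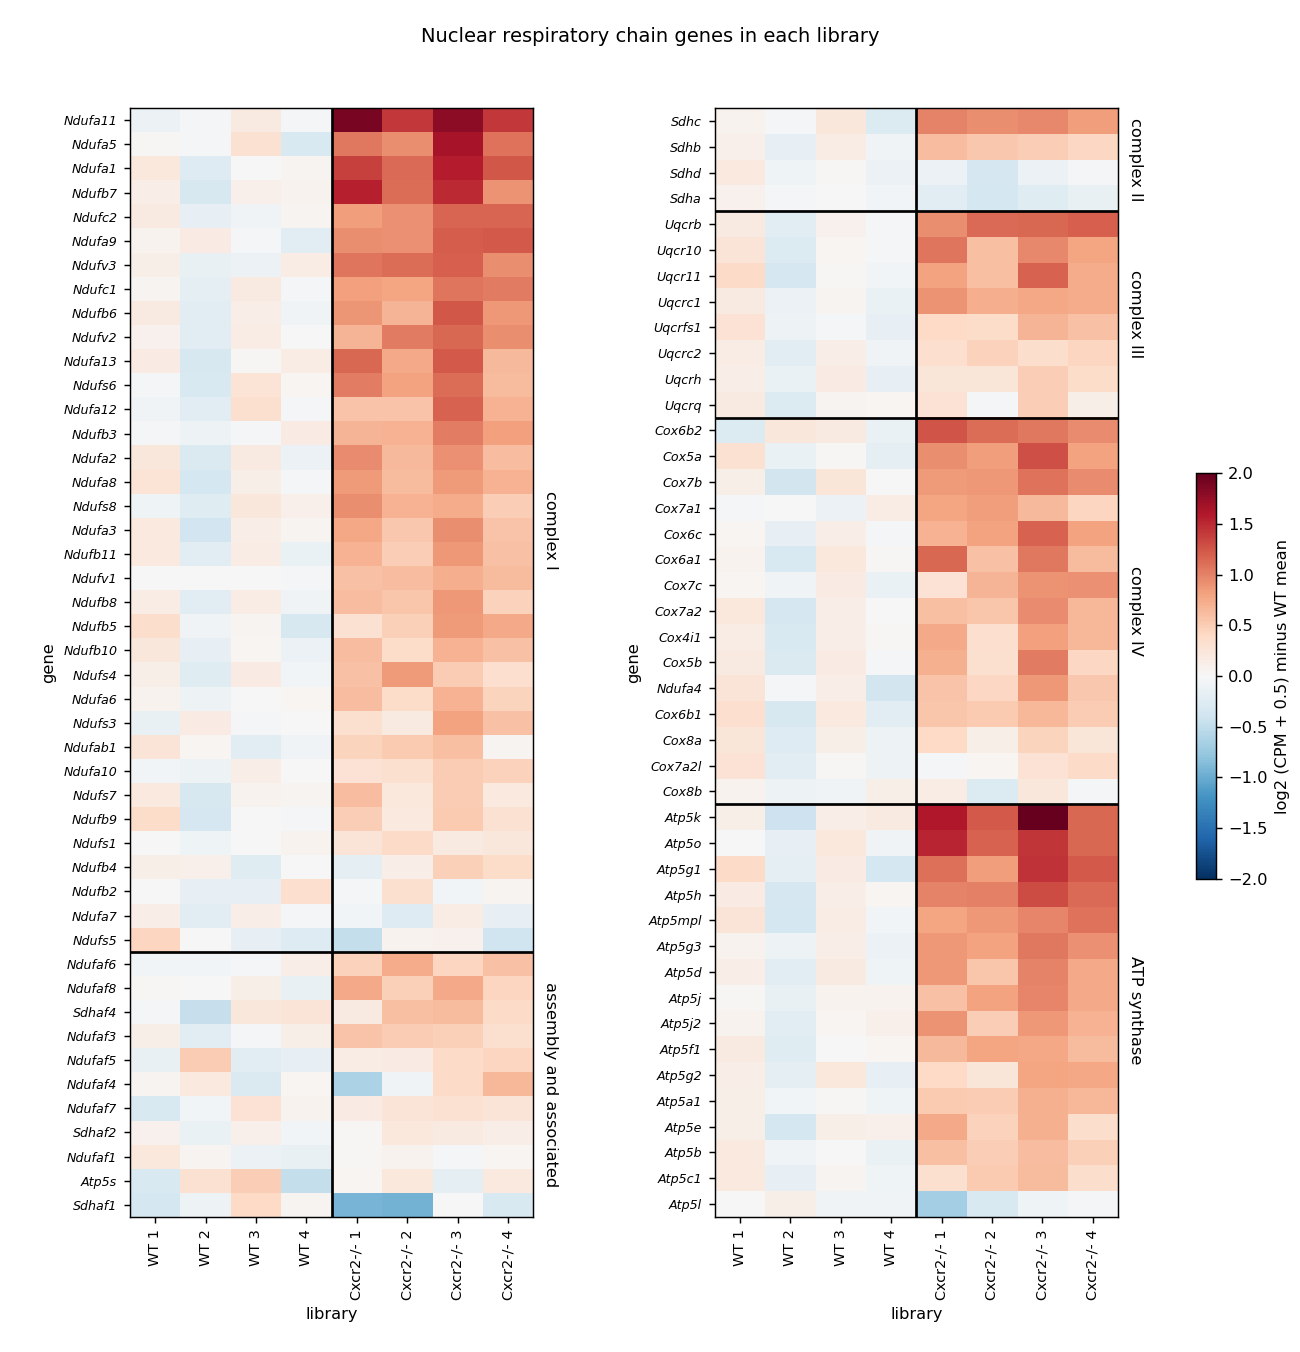
The genes (rows, by class and in order of change) in each of the 8 libraries (columns), as log2 (CPM + 0.5) minus the WT mean of the gene. The *Cxcr2-/-* columns are red for most rows of complexes I, III, IV and ATP synthase, and pale or blue for *Sdha*, *Sdhd*, *Atp5l*, *Ndufs5*, *Ndufa7* and *Sdhaf1*.

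Fold changes of all genes went with mRNA length, and respiratory chain genes are short. The median mRNA length was 824 bases over the 90 genes and 2795 bases over all protein-coding genes tested. Among protein-coding genes other than the 90, 42.1% of those up to 500 bases rose, with a median log2 fold change of 0.53, and the share fell with length to 24.2% of those over 5000 bases, with a median of -0.04. In each class up to 2000 bases the median of the respiratory genes was above that of the others. From 500 to 1000 bases, 35 of 42 respiratory genes rose, with a median of 0.74, against 38.2% and 0.31 for the other genes of that length. From 1000 to 1500 bases, 12 of 18 rose, with a median of 0.51, against 32.7% and 0.21. From 1500 to 2000 bases, 9 of 10 rose, with a median of 0.65, against 30.5% and 0.15. Up to 500 bases, 9 of 12 rose, with a median of 0.88. From 2000 to 3000 bases, 3 of 6 rose and 1 fell, with a median of 0.20 against 0.10 (30.2% of the others rose), and from 3000 to 5000 bases 1 of 2 rose. The part of length in the rise was not tested further.

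**Figure D4:**
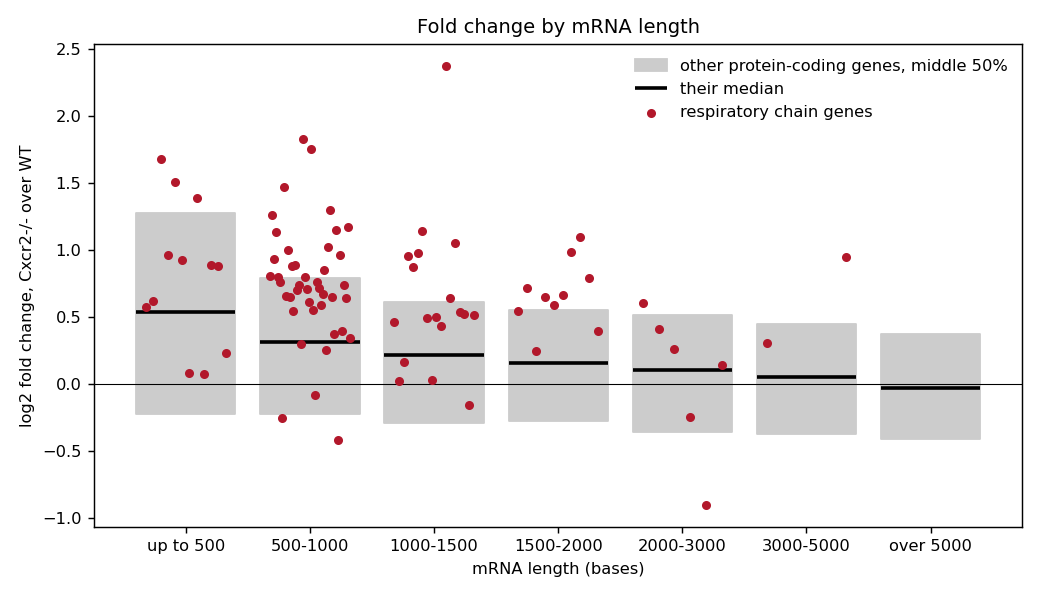
Log2 fold change (*Cxcr2-/-* over WT) by mRNA length, with the middle 50% of the other protein-coding genes tested in grey, their median as a black line and each respiratory chain gene as a red point. The median of the other genes falls from 0.53 in the shortest to -0.04 in the longest class, and most red points lie above it in the classes up to 2000 bases.

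The promoters were read for letters bound by factors known to act on nuclear respiratory genes. RefSeq promoters of GRCm38.p6, from 250 bases before to 50 bases after the start, were at hand for 77 of the 90 genes. For these the promoter nearest the GENCODE start was read, for other genes the first listed, so the shares are not read quite alike. The promoter read for *Atp5g2*, which holds an NRF1 core, starts 3298 bases from its GENCODE start. The NRF1 core CGCATGCG, which reads alike on both strands, was in 10 of the 77 (13.0%), against 3.98% of the promoters of 9721 tested genes. The YY1 core AAGATGGCG, searched on both strands, was in 7 of 77 (9.09%), against 3.27%, and in each of the 7 it stood in the direction of the gene, beginning 11 to 36 bases from the first transcribed base. The ETS core CCGGAAG on either strand (CTTCCGG when read on the other), the letters of the factor GABPA, was in 19 of 77 (24.7%), against 18.7%. The letters CCAAT were in 42.9% and TATAAA in 7.79%, against 39.3% and 7.33%. No matches to different motifs shared bases. The median log2 fold change was 0.77 for genes with and 0.65 for genes without the NRF1 core, 0.76 and 0.65 for the YY1 core, and 0.54 and 0.68 for the ETS core. Of the genes with a core, 7 of 10, 7 of 7 and 13 of 19 rose, in that order, against 51 of 67, 51 of 70 and 45 of 58 of those without. These shares were not tested.

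The stretches from 170 bases before to 20 bases from the start on are shown for *Ndufa11* and *Atp5k*, which had the largest rises in complex I and ATP synthase, for *Cox6a1*, which holds both an NRF1 and an ETS core, for *Ndufaf8*, which holds an ETS and a YY1 core, and for *Sdha*, *Sdhb* and *Sdhd* of complex II, of which *Sdhb* rose and *Sdha* fell. Capitals mark the NRF1, ETS and YY1 cores, written 5′ to 3′ on the strand of the gene. In order, they lie at chr17:56717592-56717781 on the plus strand, chr5:108434380-108434569 and chr5:115348939-115349128 on the minus strand, chr11:120098764-120098953 on the plus strand, chr13:74350221-74350410 on the minus strand, chr4:140961101-140961290 on the plus strand and chr9:50603830-50604019 on the minus strand.
Ndufa11: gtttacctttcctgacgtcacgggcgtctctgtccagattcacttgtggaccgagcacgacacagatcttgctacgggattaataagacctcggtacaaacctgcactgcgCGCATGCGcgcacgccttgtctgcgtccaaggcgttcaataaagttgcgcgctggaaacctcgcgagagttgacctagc
Atp5k: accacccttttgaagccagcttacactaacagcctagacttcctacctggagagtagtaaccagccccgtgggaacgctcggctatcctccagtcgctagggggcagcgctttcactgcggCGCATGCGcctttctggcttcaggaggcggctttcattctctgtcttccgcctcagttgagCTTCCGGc
Cox6a1: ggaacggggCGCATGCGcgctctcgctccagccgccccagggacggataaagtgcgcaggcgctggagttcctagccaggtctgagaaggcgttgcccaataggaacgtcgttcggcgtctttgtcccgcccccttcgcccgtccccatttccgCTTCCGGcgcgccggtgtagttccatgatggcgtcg
Ndufaf8: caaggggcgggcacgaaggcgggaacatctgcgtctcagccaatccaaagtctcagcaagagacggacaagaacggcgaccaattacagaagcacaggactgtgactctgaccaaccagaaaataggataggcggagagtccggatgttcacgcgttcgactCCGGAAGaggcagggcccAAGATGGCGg
Sdha: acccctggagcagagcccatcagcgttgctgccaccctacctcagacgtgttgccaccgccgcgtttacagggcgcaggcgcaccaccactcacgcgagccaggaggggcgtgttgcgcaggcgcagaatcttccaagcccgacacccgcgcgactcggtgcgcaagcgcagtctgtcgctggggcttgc
Sdhb: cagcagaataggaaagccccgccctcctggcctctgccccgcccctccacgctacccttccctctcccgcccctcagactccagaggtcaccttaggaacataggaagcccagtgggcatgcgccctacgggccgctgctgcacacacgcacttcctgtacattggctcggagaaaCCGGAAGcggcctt
Sdhd: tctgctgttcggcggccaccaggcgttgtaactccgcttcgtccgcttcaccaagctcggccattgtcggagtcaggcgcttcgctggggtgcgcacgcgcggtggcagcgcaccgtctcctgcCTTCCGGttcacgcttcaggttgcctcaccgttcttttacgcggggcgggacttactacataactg
*Ndufa11*, *Atp5k* and *Cox6a1* hold an NRF1 core in these stretches, *Sdhb*, *Sdhd*, *Atp5k*, *Cox6a1* and *Ndufaf8* an ETS core, and *Sdha* none of the 3 cores. *Sdhb* rose and *Sdhd* did not pass the test, although both hold the ETS core.

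Complex I takes electrons from NADH. Its nuclear subunits are 7 core subunits, which carry the flavin and the iron-sulfur clusters, and supernumerary subunits around them. All 7 core genes rose, by log2 fold changes from 0.26 for *Ndufs1* to 0.98 for *Ndufv2*, with a median of 0.65. With the covariate for pairs that met no gene, 3 of the 7 rose. The calls of *Ndufs1*, *Ndufs3* and *Ndufs7* were also lost with upper-quartile scaling or total counts, and each was lost without some of the libraries: *Ndufs1* without WT replicate 2 or 3 or *Cxcr2-/-* replicate 2 or 4, *Ndufs3* without WT replicate 1 or 3 or *Cxcr2-/-* replicate 3 or 4, and *Ndufs7* without WT replicate 2, 3 or 4 or *Cxcr2-/-* replicate 1 or 3. *Ndufs7* was not called by DESeq2 either. Of the 29 supernumerary genes 23 rose, 9 of them with that covariate, and their median was 0.76. The 6 that did not pass were *Ndufs5*, *Ndufa7*, *Ndufb2*, *Ndufb4*, *Ndufb9* and *Ndufab1*, between -0.42 and 0.49. *Ndufab1* encodes the mitochondrial acyl carrier protein, which also serves fatty acid synthesis.

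*Ndufa11* (ENSMUSG00000002379), a subunit in the membrane arm, lies at chr17:56717767-56722141 of GRCm38. It was at 2.26, 2.39, 2.86 and 2.43 CPM in WT and at 10.6, 7.42, 9.73 and 7.44 CPM in *Cxcr2-/-* replicates 1 to 4. The lowest *Cxcr2-/-* library was thus more than 2 times the highest WT library, and the gene rose by 1.82 ± 0.17 on the log2 scale (± SE, adjusted p = 5e-06). *Ndufa5*, a subunit of the peripheral arm, was at 0.597, 0.563, 0.828 and 0.376 CPM in WT and at 1.74, 1.55, 2.90 and 1.80 CPM in *Cxcr2-/-*. Its groups did not overlap either, at a low level, and it rose by 1.75 ± 0.31 (adjusted p = 0.000562). *Ndufb7* had the highest level of complex I per kilobase of mRNA, 58.2 CPM per kb over the 8 libraries. It was at 23.0, 16.6, 22.4 and 21.9 CPM in WT and at 61.9, 45.5, 59.4 and 39.4 CPM in *Cxcr2-/-*, and it rose by 1.30 ± 0.15 (adjusted p = 2.78e-05).

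Complex II, succinate dehydrogenase, links the tricarboxylic acid cycle to the chain, and its 4 subunits moved in different directions. *Sdhc* and *Sdhb* rose, *Sdha* fell, and *Sdhd* did not pass the test. *Sdha* encodes the flavoprotein that oxidises succinate, *Sdhb* the iron-sulfur subunit, and *Sdhc* and *Sdhd* the anchors in the membrane.

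*Sdha* (ENSMUSG00000021577, chr13:74322254-74350280) was at 92.5, 84.6, 86.3 and 84.0 CPM in WT and at 74.1, 67.7, 72.9 and 77.9 CPM in *Cxcr2-/-* replicates 1 to 4. Every *Cxcr2-/-* library lay below every WT library, and the gene fell by 0.25 on the log2 scale (SE 0.08, adjusted p = 0.0253). The call was lost without WT replicate 1 (adjusted p = 0.0718), without *Cxcr2-/-* replicate 2 (0.0837) or 3 (0.0582), without the filter on low counts (0.0569), and with the covariate for pairs that met no gene (0.114) or for RNA of other cells (0.0806). The direction was the same in each of them. *Sdhd* (ENSMUSG00000000171, chr9:50596357-50603812) was at 60.0, 49.6, 53.3 and 48.2 CPM in WT and at 48.4, 41.4, 48.4 and 50.9 CPM in *Cxcr2-/-*. Its groups overlapped, at -0.16 ± 0.10 on the log2 scale (adjusted p = 0.217), and only upper-quartile scaling, of the alternatives run, called it lower (adjusted p = 0.0379).

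*Sdhb* (ENSMUSG00000009863, chr4:140961203-140979193) was at 27.7, 23.0, 28.6 and 24.6 CPM in WT and at 39.7, 37.9, 36.4 and 34.7 CPM in *Cxcr2-/-*. It rose by 0.52 ± 0.10 (adjusted p = 0.000922), with no overlap, and did not pass with the covariate for pairs that met no gene (adjusted p = 0.12). *Sdhc* (ENSMUSG00000058076, chr1:171127165-171150603) was at 13.4, 12.6, 15.0 and 10.5 CPM in WT and at 25.8, 24.7, 25.4 and 23.2 CPM in *Cxcr2-/-*. It rose by 0.94 ± 0.12 (adjusted p = 4.01e-05), the largest change of the complex. Per kilobase of mRNA, the ratio of *Sdhc* to *Sdha* was 0.136 ± 0.0186 in WT and 0.311 ± 0.0269 in *Cxcr2-/-* libraries, and that of *Sdhb* to *Sdha* was 0.759 ± 0.0640 and 1.30 ± 0.127. Neither ratio overlapped between the groups. The ratio of *Sdhd* to *Sdha* was 1.43 ± 0.0793 in WT and 1.52 ± 0.0537 in *Cxcr2-/-*, with overlap.

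**Figure D5:**
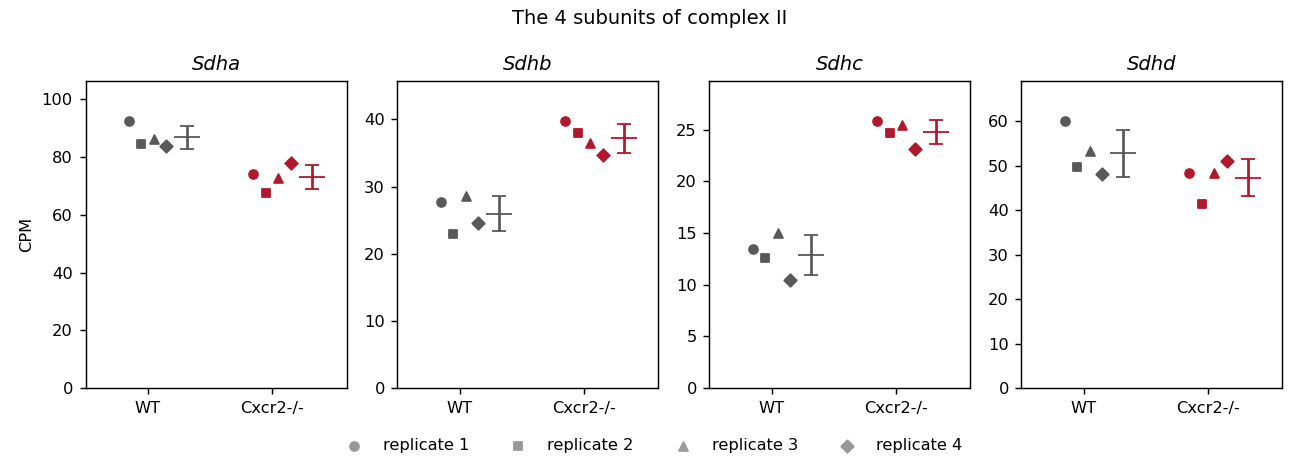
CPM of the 4 complex II genes in each library (n = 4 per group, replicates by marker shape), with mean ± SD beside the points. *Sdhb* and *Sdhc* lie higher in all *Cxcr2-/-* libraries, *Sdha* lies lower, and the groups overlap for *Sdhd*.

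Complex III passes electrons from ubiquinol to cytochrome c. All of its genes but *Uqcrq* rose, and the median log2 fold change was 0.65. With the covariate for pairs that met no gene, *Uqcrb* and *Uqcrc1* rose and the median was 0.40. The call of *Uqcrh* was also lost with upper-quartile scaling, total counts or protein-coding genes only, and without WT replicate 2 or 4 or *Cxcr2-/-* replicate 3 or 4. *Uqcrb*, which encodes the ubiquinone-binding subunit, was at 5.92, 4.32, 5.53 and 4.98 CPM in WT and at 10.3, 11.8, 12.0 and 12.5 CPM in *Cxcr2-/-*. It rose by 1.17 ± 0.14 (adjusted p = 3.1e-05), with no overlap. *Uqcr10*, a small subunit, was at 12.7, 8.62, 10.8 and 10.3 CPM in WT and at 22.5, 16.2, 20.8 and 18.6 CPM in *Cxcr2-/-*, and it rose by 0.88 ± 0.14 (adjusted p = 0.000288). Its groups were apart as well. *Uqcrq*, the subunit with the highest level per kilobase (72.2 CPM per kb), was at 30.4, 22.2, 27.8 and 27.5 CPM in WT and at 32.8, 26.0, 38.0 and 29.3 CPM in *Cxcr2-/-*. These overlapped, at 0.23 ± 0.13 on the log2 scale (adjusted p = 0.183). *Cyc1*, the cytochrome of the same complex, rose by 1.06 ± 0.12 (adjusted p = 2.09e-05).

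Complex IV, cytochrome c oxidase, reduces oxygen. *Cox7a2l*, *Cox8a* and *Cox8b* did not pass the test, and the other 12 genes rose. With the covariate for pairs that met no gene 4 of the 12 rose, and *Cox4i1*, *Cox5a*, *Cox5b*, *Cox6a1*, *Cox6b1*, *Cox7a1*, *Cox7a2* and *Ndufa4* did not pass, at adjusted p from 0.0621 to 0.42. *Cox6b2*, an isoform known mainly from testis, was at 0.531, 0.965, 0.909 and 0.636 CPM in WT and at 2.48, 2.21, 2.08 and 1.90 CPM in *Cxcr2-/-*. It rose by 1.505 ± 0.26 (adjusted p = 0.00046) with no overlap, from a low level. *Cox5a*, which stands beside the catalytic core, was at 13.2, 9.55, 10.7 and 9.08 CPM in WT and at 20.6, 19.1, 26.4 and 18.8 CPM in *Cxcr2-/-*, a rise of 0.997 ± 0.15 (adjusted p = 0.000158). *Cox8a* had the highest level per kilobase of all 90 genes, 126 CPM per kb. It was at 73.3, 51.5, 66.7 and 57.4 CPM in WT and at 81.5, 67.0, 84.0 and 72.7 CPM in *Cxcr2-/-*, which overlapped, at 0.30 ± 0.12 on the log2 scale (adjusted p = 0.0595).

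Several subunits of complex IV exist as isoforms that differ by tissue. *Cox4i1*, the widely expressed form, rose from 54.1 ± 7.61 to 85.1 ± 11.9 CPM (adjusted p = 0.00112), while *Cox4i2*, the form known from lung, had 2 to 24 counts per library. *Cox6a1* rose from 27.3 ± 3.95 to 50.1 ± 10.2 CPM (adjusted p = 0.000422), while *Cox6a2*, the heart and muscle form, had 21, 24, 7 and 20 counts in WT and 0, 5, 2 and 2 in *Cxcr2-/-* replicates 1 to 4. *Cox6a2* was thus lower in every *Cxcr2-/-* library, below the count minimum and not tested here. *Cox6b1* rose from 48.3 ± 10.7 to 70.2 ± 3.37 CPM (adjusted p = 0.00594). Per kilobase, *Cox6b2* made up 2.16% ± 0.871 of the *Cox6b1* and *Cox6b2* sum in WT and 3.95% ± 0.456 in *Cxcr2-/-*, with no overlap. *Cox7a2*, the liver form, rose from 27.1 ± 4.37 to 43.9 ± 5.74 CPM (adjusted p = 0.00087), and *Cox7a1*, the heart and muscle form, from 1.02 ± 0.119 to 1.94 ± 0.294 CPM (adjusted p = 0.00533). *Cox7a2l*, which encodes a factor that joins complexes III and IV into supercomplexes, came to 31.8 ± 4.98 CPM in WT against 35.7 ± 4.97 CPM in *Cxcr2-/-* (adjusted p = 0.326). Its share of the 3 *Cox7a* genes per kilobase was 40.4% ± 1.87 in WT and 31.7% ± 2.82 in *Cxcr2-/-*, and that of *Cox7a2* 56.0% ± 1.999 and 63.5% ± 2.43, both with no overlap. *Cox8b*, the muscle form, was at 0.339 ± 0.0607 and 0.356 ± 0.128 CPM (adjusted p = 0.889). *Ndufa4* rose from 11.9 ± 2.22 to 18.2 ± 2.64 CPM (adjusted p = 0.00551), and its paralog *Ndufa4l2* had no counts.

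ATP synthase turns the proton gradient into ATP. The genes of every module rose except *Atp5l*, a small membrane subunit, at -0.26 ± 0.13 on the log2 scale (adjusted p = 0.136). Near-identical copies in 3 pseudogenes hold 57.4% of the *Atp5l* mRNA, so its level is uncertain. The 4 genes of the peripheral stalk had a median log2 fold change of 0.96, the 3 of the c-ring 0.93, the 4 small membrane subunits 0.86, and the 5 of the catalytic head and central stalk 0.57. In the peripheral stalk, pseudogene copies hold 77.6% of the *Atp5h* and 43.4% of the *Atp5f1* mRNA, so its median is uncertain. *Atp5k*, which encodes a small membrane subunit, was at 3.94, 2.59, 3.98 and 4.14 CPM in WT and at 11.9, 9.16, 17.0 and 8.63 CPM in *Cxcr2-/-*. It rose by 1.68 ± 0.23 (adjusted p = 8.5e-05), and its groups were far apart. *Atp5o*, of the peripheral stalk, was at 2.98, 2.59, 3.50 and 2.81 CPM in WT and at 9.48, 7.30, 8.84 and 7.17 CPM in *Cxcr2-/-*, a rise of 1.47 ± 0.17 (adjusted p = 1.9e-05). A second *Atp5o* entry on the same strand covers 12.3% of its exons and genes on the other strand cover 35.6%, so its level is uncertain. *Atp5b*, the catalytic beta subunit, had the highest level of the complex, 98.5 CPM per kb. It was at 176, 146, 152 and 140 CPM in WT and at 233, 214, 236 and 214 CPM in *Cxcr2-/-*, and it rose by 0.55 ± 0.10 (adjusted p = 0.000569).

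The c-ring subunit is encoded by 3 genes with the same mature protein. *Atp5g3* made up most of their RNA and rose from 19.3 ± 1.74 to 36.7 ± 2.85 CPM (adjusted p = 1.27e-05). *Atp5g1* rose from 3.003 ± 0.812 to 7.21 ± 1.35 CPM (adjusted p = 0.000446) and *Atp5g2* from 3.85 ± 0.626 to 5.91 ± 1.22 CPM (adjusted p = 0.0189). The call of *Atp5g2* was lost without WT replicate 2 or 4 or *Cxcr2-/-* replicate 3 or 4, at adjusted p up to 0.0674, and with upper-quartile scaling (0.0517), total counts (0.0513) or the covariate for pairs that met no gene (0.208). With that covariate *Atp5g1* did not pass either (adjusted p = 0.0846). Per kilobase, *Atp5g3* held 66.4% ± 2.50 of the sum in WT and 67.1% ± 2.85 in *Cxcr2-/-*, with overlap, while *Atp5g2* held 21.3% ± 0.921 and 17.3% ± 1.92, with none. Near-identical processed copies cover 69.0% of the *Atp5g1* and all of the *Atp5g2* mRNA used here, so reads of both can be lost or shared.

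Among the assembly and associated genes, *Ndufaf3*, *Ndufaf8* and *Ndufaf6* rose and the other 8 did not pass the test. None of the 3 passed with the covariate for pairs that met no gene (adjusted p = 0.378, 0.218 and 0.0553, in that order). *Ndufaf8*, an assembly factor of complex I, was at 2.45, 2.43, 2.65 and 2.14 CPM in WT and at 4.45, 3.54, 4.42 and 3.43 CPM in *Cxcr2-/-*. It rose by 0.71 ± 0.18 (adjusted p = 0.00614), with no overlap. *Ndufaf6* rests on 10 counts over the WT and 51 over the *Cxcr2-/-* libraries. Only the 4 *Cxcr2-/-* libraries reached the minimum of 10 counts, so *Ndufaf6* entered the 90 genes through the group where it is high. It was at 0.0442, 0.0402, 0.0534 and 0.116 CPM in WT and at 0.278, 0.443, 0.254 and 0.340 CPM in *Cxcr2-/-*, and its log2 fold change of 2.37 ± 0.51 (adjusted p = 0.00227) is the highest of the 90 genes at a level near the limit of counting. *Sdhaf2*, which attaches the flavin to the *Sdha* product, had the highest level per kilobase of the class. It was at 36.2, 30.9, 36.5 and 32.6 CPM in WT and at 34.4, 39.6, 38.7 and 37.3 CPM in *Cxcr2-/-*, with overlap and a difference of 0.14 ± 0.09 on the log2 scale (adjusted p = 0.24). Of the 20 genes of all classes that averaged under 5 CPM 9 rose, of the 30 from 5 to 20 CPM 28 rose, and of the 40 at 20 CPM or more 32 rose. No shares of all genes tested were taken at these levels, and low counts give the test less power. These counts are thus not read as a difference by level.

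Several respiratory genes share sequence with other genes, which limits their counts. Near-identical copies elsewhere (at least 98% identity over at least 100 bases) were found for 15 of the 90 genes, all in pseudogenes except for *Cox5b* and *Ndufc1*, and exons on the opposite strand overlapped 29. Among the 49 genes with no such copy and no overlapping exon, 37 rose and 1 fell, with a median log2 fold change of 0.61. Among the other 41, 32 rose, with a median of 0.67. Genes on the opposite strand covered 6.41% of the exons of *Ndufa11*, 9.94% of those of *Cox4i1* and 12.8% of those of *Cox5a*, and copies held 62.8% of the mRNA of *Uqcrb*. Whether the counting used strand is not given in the sources used here, so the levels of these genes are uncertain. *Ndufs5*, of which 60.8% is found in a copy, stayed under 1 CPM in every library.

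Of the 13 subunits encoded by mitochondrial DNA, 7 had counts enough for the test and all 7 rose, against 23.7% of all genes tested. Their median log2 fold change was 1.48. The other 6 (*mt-Nd3*, *mt-Nd4l*, *mt-Co2*, *mt-Co3*, *mt-Atp6* and *mt-Atp8*) were listed at 0.127 CPM or less in every library, so RNA of these 6 was hardly counted in either group. *mt-Co1*, the catalytic subunit of complex IV, was at 259, 217, 261 and 206 CPM in WT and at 393, 573, 1022 and 837 CPM in *Cxcr2-/-* replicates 1 to 4. Its groups did not overlap, and it rose by 1.58 ± 0.24 (adjusted p = 0.000164). *mt-Cytb*, of complex III, was at 54.5, 51.2, 58.7 and 44.3 CPM in WT and at 94.6, 90.7, 257 and 139 CPM in *Cxcr2-/-*, and it rose by 1.48 ± 0.27 (adjusted p = 0.000798). *Cxcr2-/-* replicate 3 was the highest library for both, followed by replicate 4. Nearly all of the summed RNA of the 13 came from the 7 tested, and most of it was *mt-Co1*. The sum was 379 ± 46.6 CPM in WT and 1087 ± 488 CPM in *Cxcr2-/-*, a ratio of 2.87, or 2.32 without *Cxcr2-/-* replicate 3. Without that library 6 of the 7 rose, and *mt-Nd2* did not pass (log2 fold change 0.49, adjusted p = 0.228). *Cxcr2-/-* replicates 3 and 4 were also the highest for the precursor marker *Mpo*, at 81.2 and 146 CPM against 19.1 and 20.2 CPM in replicates 1 and 2. Their mean log2 level of markers of other cell types was higher too, at 1.96 and 2.08 against 1.57 and 1.39. In the WT libraries it was 1.70 to 2.12. The part of precursor cells in the mitochondrial result was not tested.

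Of 22 electron carriers and enzymes that feed ubiquinone, 10 rose and 5 fell, with a median log2 fold change of 0.26. Over all protein-coding genes tested, 29.9% rose and 20.2% fell, with a median of 0.10. *Cycs*, cytochrome c, went from 7.83, 9.18, 8.10 and 7.72 CPM in WT to 10.8, 11.0, 9.99 and 10.2 CPM in *Cxcr2-/-* and rose by 0.35 ± 0.12 (adjusted p = 0.0283). *Etfb* and *Etfa*, which pass electrons from fatty acid oxidation, rose by 1.75 and 1.18, and *Coq2* and *Coq8a*, which serve ubiquinone synthesis, fell by 0.92 and 0.86 on the log2 scale. Of 33 assembly factors outside the name rule that were tested, 11 (33.3%) rose and 2 fell, so the share that rose was near that of all protein-coding genes. *Cox17*, a copper chaperone of complex IV, fell by 1.35 (adjusted p = 1.55e-06) and *Ttc19*, of complex III, by 0.62, while *Cox10*, of heme A synthesis, rose by 1.17 and *Bcs1l*, of complex III, by 0.86.

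Of the 13 tested regulators of nuclear respiratory genes, *Esrra* rose by 0.34 (adjusted p = 0.0328), *Lrpprc*, which stabilises mitochondrial mRNA, rose by 0.68 (adjusted p = 0.0299), *Gabpb1* fell by 0.24 (adjusted p = 0.0384), and the other 10 did not pass. *Nrf1* was at 61.7, 64.0, 67.1 and 69.8 CPM in WT and at 65.3, 62.8, 60.7 and 57.4 CPM in *Cxcr2-/-* (log2 fold change -0.09 ± 0.08, adjusted p = 0.388). *Gabpa* differed by 0.08 ± 0.08 on the log2 scale (adjusted p = 0.462) and *Yy1* by -0.15 ± 0.09 (adjusted p = 0.179). The groups overlapped for *Nrf1*, and also for *Esrra* and *Lrpprc*. Of the 13 regulators 15.4% rose, against 29.9% of all protein-coding genes tested. *Tfam*, the packaging factor of mitochondrial DNA, had 0.25 ± 0.22 (adjusted p = 0.37), *Tfb1m* 0.17, *Tfb2m* 0.17, *Polrmt* 0.13, *Pprc1* 0.41, *Ppargc1b* -0.73 and *Myc* -0.37, none of which passed. *Ppargc1a* and *Slirp* had too few counts, at most 0.0758 CPM.

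Of 17 enzymes of the tricarboxylic acid cycle and pyruvate dehydrogenase, 10 rose and none fell, with a median log2 fold change of 0.44, led by *Idh3a* (1.08) and *Suclg1* (0.86). For this and the next lists, the shares over all protein-coding genes tested were 29.9% that rose and 20.2% that fell. Of 15 glycolytic enzymes tested, 13 rose and none fell, with a median of 0.76, led by *Aldoc* (1.44) and *Gapdh* (1.10). Of 18 mitochondrial membrane carriers and proteins of mitochondrial mass, 10 rose and 2 fell, with a median of 0.40. *Cisd1* rose by 1.22 and *Tomm40*, an import channel, by 0.94, while *Hspe1*, a chaperonin, fell by 1.28 and *Slc25a3*, the phosphate carrier that supplies ATP synthase, fell by 0.61 on the log2 scale.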

How the data were processed

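RNA of sorted spleen neutrophils was sequenced in 4 WT and 4 *Cxcr2-/-* samples. Trimming, STAR alignment on mm10 and HTSeq gene counts were done by the authors, and FastQC is named in the submitters' processing notes. Versions, counting annotation and strand setting are not given in the sources used here. The deposited counts were analysed as they are. Summary lines that name no gene were left out of library sizes. Of 55414 identifiers, 3333 had no entry in GENCODE M21 and held 1.43% of counts.

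Counts were tested with edgeR 4.0.16 (R 4.3.3) using TMM, filterByExpr and glmQLFTest with genotype as the only term, over 16778 genes. Genes were named by rule: the 2 largest rises and falls and the highest level per kilobase in each class, all of complex II, and paralogs. Other genes appear only in ranges or lists. Of the 90 genes, 1 enters the counts and medians but is not reported singly here or shown in the heat map. Alternatives were DESeq2 1.42.0, other scalings and filters, a replicate block, 2 covariates and leaving out each library. Members and lists were chosen with earlier results of these data known. Replicates differed by more than counting noise in every pair.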

Additional observations from a re-analysis of the deposited data

Results flagged for a closer look

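In 5 of 90 groups of 4 libraries looked at, 1 library stood apart from the other 3, and chance alone flags about 1 group in 20. WT replicate 2 was the lowest WT library for *Atp5k*, at 2.59 CPM against 3.94 to 4.14 CPM, and for *Ndufb7*, at 16.6 CPM against 21.9 to 23.0 CPM. WT replicate 4 was the lowest for *mt-Nd2*, at 6.42 CPM against 10.6 to 11.04 CPM. *Cxcr2-/-* replicate 3 was the highest *Cxcr2-/-* library for *mt-Nd4*, at 76.9 CPM against 24.6 to 32.7 CPM, and for *mt-Nd6*, at 17.4 CPM against 2.55 to 3.79 CPM.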

How the results depend on the processing

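Of the 90 genes, 69 rose with the settings of the report, 64 to 71 under the other scalings, filters, tools and the replicate block, 64 to 70 with each library left out, and 28 with the covariate for pairs that met no gene. No gene that passed the test changed sign under any alternative run. *Sdhaf1*, *Atp5s*, *Ndufaf1*, *Ndufaf4*, *Ndufb2*, *Ndufb9* and *Cox8b*, which did not pass it, changed sign in at least 1 run. They did not pass in the runs where the sign changed. With 1 library left out, edgeR's test in at least 1 run called *Sdhaf1* lower (lowest adjusted p = 0.0396) and *Ndufb9* higher (lowest adjusted p = 0.0105). The count of genes that fell, 1 in the report, was 3 with upper-quartile scaling, 2 with the replicate block, 0 without the filter and with either covariate, and 0 to 1 with each library left out. Upper-quartile scaling moved the median of all genes from 0.01 to -0.11. With it the median log2 fold change was 0.061 for complex II, 0.53 for complex III, 0.66 for ATP synthase and 0.19 for assembly genes. With total counts it was 0.092 for complex II and 0.56 for complex III, and with protein-coding genes only 0.11 for complex II. With the covariate for pairs that met no gene it was 0.52, 0.038, 0.40, 0.55 and 0.65 for complexes I to IV and ATP synthase and 0.66 for assembly genes, which were at 0.42 with the covariate for RNA of other cells. With each library left out, complex II ranged from 0.12 to 0.23, complex III from 0.59 to 0.74 and assembly genes from 0.22 to 0.46. The causes were not tested. Replicate numbers did not pair the libraries (correlations 0.15, -0.19, 0.24 and -0.31), and with the replicate block 71 genes rose. The leave-out fits of the mitochondrially encoded genes were chosen after seeing the data and called 6 to 7 of 7. Counts under about 10 per library, as for *Ndufaf6*, limit precision.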
